A study of Mus musculus with 2 samples.

Results

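The genes described here encode antibody chains and the proteins that assemble, display or transport antibodies. They are Igkc, Igha, Ighm, Jchain, Mzb1, Pigr, Cd79a, Cd79b and Ms4a1. They were chosen by symbol, through their gene identifiers in a GRCm38 annotation, by a rule that uses no measured value, although earlier results of these data were known. All 9 were found among the 43346 gene rows of the deposited tables. Polyadenylated RNA of the pancreas of 1 female C57BL/6J mouse, an adult of 10 weeks, was sequenced in 2 technical libraries, called replicate 1 and replicate 2. Both libraries come from the same animal and carry no treatment or allele difference, so no comparison between conditions exists. The labels do not say at which step the libraries were split, and they place replicate 2 alone in 2015. With 1 animal, the spread between the libraries says nothing of how mice differ. Whether it holds more than technical steps, such as different pieces of tissue, cannot be told.

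A B cell makes 1 heavy chain and 1 light chain, each joined from a variable segment and a constant region. On the surface of a B cell the membrane form of the antibody sits with the signalling chains encoded by Cd79a and Cd79b. Plasma cells, the secreting descendants of B cells, switch to the secreted form and make large amounts of antibody RNA. Secreted IgM and IgA are joined into polymers with the J chain (Jchain), a step that the endoplasmic reticulum protein Mzb1 aids. Epithelial cells bind such polymers with the polymeric immunoglobulin receptor, encoded by Pigr, and carry them into the lumen of ducts and gut.

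The expected counts, estimates that need not be whole and were rounded here, summed to 9441559 in replicate 1 and 9797569 in replicate 2. Mitochondrial genes, their nuclear copies and 3 further features held 38.1% of the counts of replicate 1 and 52.1% of those of replicate 2. Levels are given as TPM, the abundance of transcripts on a fixed total per library, which corrects for transcript length. The length used for a gene, its effective length, can differ between the libraries. A difference in TPM can then differ from that in counts, on which the log2 ratios rest. The brackets after a TPM hold the 95% exact Poisson interval of the count behind it. All intervals cover counting error only, since reads copied in amplification are not independent molecules. The pancreas label was met by its markers, with 9 of 9 acinar genes and 5 of 5 islet genes at 1 TPM or more in both libraries. In bulk tissue, fewer cells of a type and less RNA per cell cannot be told apart, and this holds for every level below.

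Antibody RNA in this pancreas was kappa light chain and IgM heavy chain above all, with little IgA. Igkc averaged 128.8 ± 50.9 TPM and Ighm 48.8 ± 20.3 TPM (SD, n = 2 technical libraries). The other 7 genes averaged between 0.465 and 4.675 TPM. Of the 9 genes, 4 reached 1 TPM in both libraries (Igkc, Ighm, Jchain and Pigr), and 8 had counts in both.

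**Figure D1:**
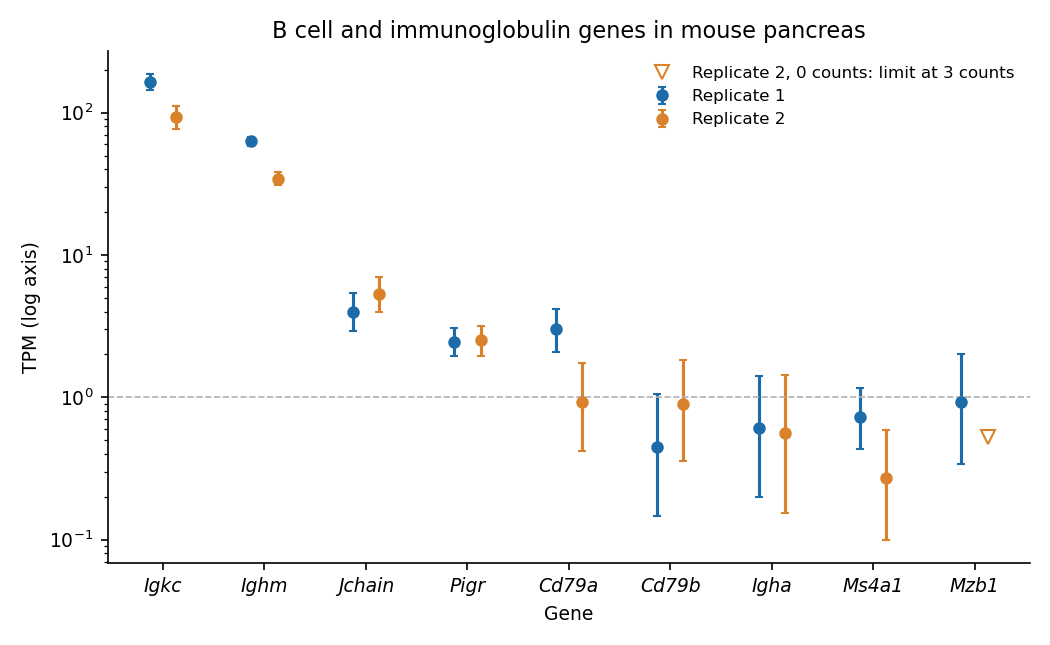
Levels of the 9 genes in TPM on a log axis, 1 point per technical library, with 95% exact Poisson intervals of the count as bars and a dashed line at 1 TPM. Igkc and Ighm lie far above the others in both libraries, and the open triangle for Mzb1 marks the 0.53 TPM that 0 counts allow in replicate 2.

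Igkc, the constant region of the kappa light chain, lies at chr6:70726435-70726966 on the plus strand. It held 232 counts, or 164.82 TPM (144 to 187), in replicate 1 and 119 counts, or 92.77 TPM (76.9 to 111), in replicate 2. It ranked 170 among all genes in replicate 1 and 239 in replicate 2. The 2 intervals do not overlap, and replicate 1 is the higher. The model of Igkc in the files is 323 bases long, while the later annotation used for names gives it 532. Its effective length was 161.15 bases in replicate 1, so its TPM rests on a short stretch of sequence.

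Ighm, the constant region of the IgM heavy chain, lies at chr12:113418558-113422730 on the minus strand. It held the most counts of the 9 genes, 738 in replicate 1 and 355 in replicate 2. These gave 63.12 TPM (58.6 to 67.8) and 34.48 TPM (31 to 38.3), again higher in replicate 1 with intervals that do not overlap. The ratio of Igkc to Ighm in TPM was nearly the same in both libraries, at 2.61 and 2.69.

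Igha, the constant region of IgA, the antibody of mucosal secretions, lies at chr12:113254830-113260236 on the minus strand. It had 5 counts in replicate 1 and 4 in replicate 2, which gave 0.61 TPM (0.198 to 1.42) and 0.56 TPM (0.153 to 1.44). The libraries overlap fully. Ighm stood above Igha by 103-fold in TPM in replicate 1 and by 61.6-fold in replicate 2.

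IgM and IgA share the tailpiece, a short end of the secreted heavy chain through which the J chain joins the antibody units. The coding sequences of both tailpieces are shown because they end the 2 heavy chains that the J chain joins, 1 abundant here and 1 near the detection limit. Capitals mark the 40 of 59 bases (67.8%) that are identical at the same position. They were read from GRCm38 on the minus strand, at chr12:113420870-113420928 for Ighm and chr12:113258771-113258829 for Igha.
Ighm secreted tail: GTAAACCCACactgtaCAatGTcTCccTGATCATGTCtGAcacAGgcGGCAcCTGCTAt
Igha secreted tail: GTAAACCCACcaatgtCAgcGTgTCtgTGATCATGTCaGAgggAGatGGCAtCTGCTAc

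Jchain lies at chr5:88519809-88527891 on the minus strand. It held 43 counts, or 4.00 TPM (2.90 to 5.39), in replicate 1 and 50 counts, or 5.35 TPM (3.97 to 7.06), in replicate 2. Its intervals overlap. Unlike Igkc and Ighm it was not lower in replicate 2, so the ratio of Ighm to Jchain in TPM was 15.8 in replicate 1 and 6.44 in replicate 2. Jchain stood above Igha by 6.56-fold in replicate 1 and by 9.55-fold in replicate 2.

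Mzb1, a chaperone of antibody assembly in B and plasma cells, lies at chr18:35647267-35649367 on the minus strand. It had 6 counts, or 0.93 TPM (0.34 to 2.01), in replicate 1 and 0 counts in replicate 2, which allows up to 0.53 TPM there. The upper limit of its log2 ratio of replicate 2 over replicate 1 was 0.25, so the counts do not settle in which library it was higher. The depth does not place Mzb1 above or below the other low genes.

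Pigr lies at chr1:130826684-130852249 on the plus strand. It held 79 counts, or 2.45 TPM (1.94 to 3.06), in replicate 1 and 70 counts, or 2.51 TPM (1.96 to 3.18), in replicate 2. Of the 9 genes it had the smallest relative difference between the libraries in TPM. All of its counts were assigned to the longest annotated isoform in both libraries.

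The genes of the B cell surface were low. Cd79a, a signalling chain of the B cell receptor, lies at chr7:24897381-24902197 on the plus strand and held 34 counts, or 3.01 TPM (2.08 to 4.20), in replicate 1. It held 9 counts, or 0.92 TPM (0.419 to 1.74), in replicate 2, and its intervals do not overlap. Its partner Cd79b, at chr11:106311341-106314762 on the minus strand, had 5 counts and 0.45 TPM (0.147 to 1.05) in replicate 1 and 7 counts and 0.89 TPM (0.359 to 1.84) in replicate 2. The ratio of Cd79a to Cd79b was thus 6.69 in replicate 1 and 1.03 in replicate 2, on few counts. Ms4a1, which encodes the B cell surface protein CD20, lies at chr19:11249675-11266241 on the minus strand. It had 18 counts and 0.73 TPM (0.434 to 1.16) in replicate 1 and 6 counts and 0.27 TPM (0.1 to 0.593) in replicate 2. An annotated antisense gene overlaps Ms4a1, and it held 0 counts in both libraries.

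In order of mean TPM, the genes ran Igkc, Ighm, Jchain, Pigr, Cd79a, Cd79b, Igha, Ms4a1 and Mzb1. The library values of Igkc, Ighm, Jchain and Pigr do not overlap between neighbours in that order, nor do those of Cd79a and Cd79b. Those of Pigr and Cd79a overlap, and so do those of each pair of neighbours from Cd79b down to Mzb1.

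IgM made up most of the heavy chain RNA. Over the heavy chain constant genes the libraries held 1039 and 481 counts. Ighm took 71.0% of these (68.2 to 73.8, 95% exact Clopper-Pearson interval) in replicate 1 and 73.8% (69.6 to 77.7) in replicate 2. The mean share was 72.4% ± 1.96 (SD, n = 2 technical libraries), so the share was close in both libraries although the level of Ighm was not. The share of Igha was 0.481% (0.156 to 1.12) in replicate 1 and 0.832% (0.227 to 2.12) in replicate 2.

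The IgG genes came next to Ighm, with 26.2% (23.5 to 29) of the heavy chain counts in replicate 1 and 23.9% (20.2 to 28) in replicate 2. Most of that was Ighg2c, the IgG2 gene that C57BL/6 mice carry, with 18.2% and 15.2%. Ighg2b held 4.91% and 5.20%, Ighg3 2.50% and 2.70%, and Ighg1 0.577% and 0.832%, again for replicate 1 and replicate 2. Ighd, the IgD chain of naive B cells, held 2.31% and 1.46%. Ighe, the IgE chain, had 0 counts in both, which allows a share of up to 0.289% in replicate 1 and 0.624% in replicate 2. Every isotype's intervals overlap between the libraries.

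**Figure D2:**
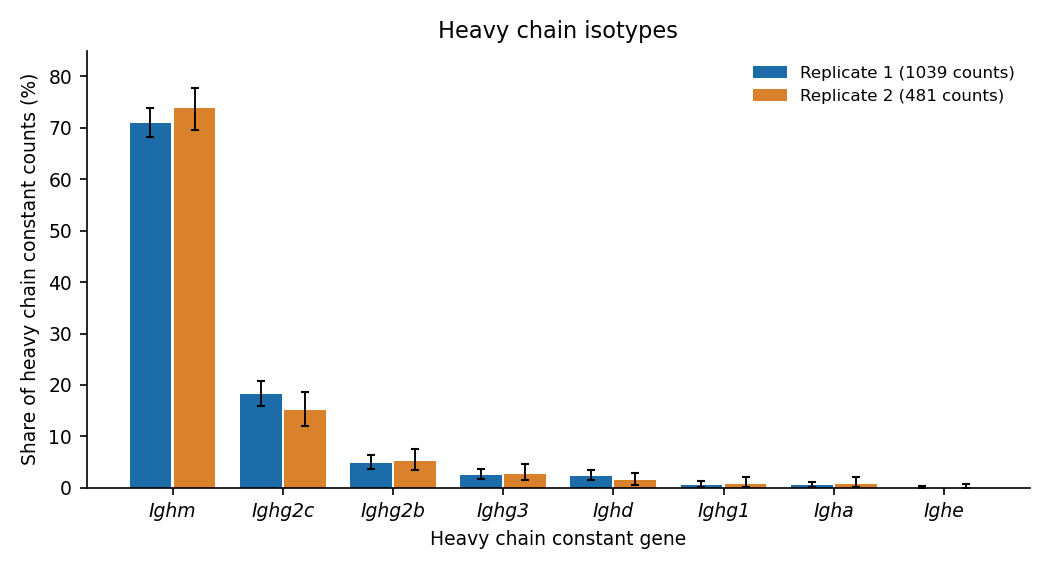
Share of each heavy chain constant gene in the heavy chain constant counts, in percent, for each technical library, with 95% exact Clopper-Pearson intervals. Ighm holds 71.0% and 73.8%, Ighg2c comes second, and Igha and Ighe lie at or near 0.

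Among light chains, Igkc held 95.5% (92 to 97.7) of the counts of Igkc and the lambda constant gene Iglc2 in replicate 1, and 96.7% (91.9 to 99.1) in replicate 2. Iglc2 itself had 11 and 4 counts. The other lambda constant genes were not matched by symbol and are not analysed here, so these shares are upper limits for kappa. Near-identical copies matter little for the constant genes: of their 50-base stretches, between 92.3% and 100% occurred in no other of the 430 annotated immunoglobulin genes.

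Most Ighm RNA was assigned to the secreted form. The secreted transcript took 96.0% of the TPM of Ighm in replicate 1 and 86.9% in replicate 2, a mean of 91.5% ± 6.49 (SD, n = 2 technical libraries). The membrane form, which anchors IgM in the B cell surface, was given 33.52 counts (posterior SD 10.25) in replicate 1 and 52.68 counts (posterior SD 14.82) in replicate 2. As a share of the Ighm counts this was 4.54% (posterior SD 1.39 points) in replicate 1 and 14.8% (posterior SD 4.17 points) in replicate 2. The shares differ by 10.3 points, against a combined posterior SD of 4.4 points. The posterior SD covers the assignment of reads to isoforms, and with 1 library on each side the difference was not tested. All Igha counts went to the secreted form, on 5 and 4 counts.

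An exon that only the membrane form holds is shown because the membrane share rests in part on reads that touch it. It is the first of 2 membrane exons of Ighm, 116 bases at chr12:113418953-113419068 on the minus strand of GRCm38. The second membrane exon adds 6 coding bases. Reads on that exon, or on the secreted tailpiece shown above, also tell the forms apart.
Ighm first membrane exon: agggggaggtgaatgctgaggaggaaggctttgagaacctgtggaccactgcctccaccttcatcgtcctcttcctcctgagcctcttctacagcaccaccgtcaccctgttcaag

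Antibody RNA also carries a variable segment, and these were counted apart from the constant genes. Of 213 annotated variable segments (113 heavy, 97 kappa and 3 lambda), 19 had at least 1 count in replicate 1, 31 in replicate 2 and 13 in both. Their counts summed to 155 and 160. The 5 most counted segments held 69.0% of them in replicate 1 and 66.9% in replicate 2, so most of the variable counts came from few segments. The 113 other immunoglobulin features, which are diversity and joining segments and pseudogenes, held 0 counts in both. Effective lengths were below model lengths, as with Igkc, at 161.15 against 323 bases in replicate 1. Features shorter than a sequenced fragment can thus hold no counts, so the 0 of the short diversity and joining segments is no measure of their RNA.

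Of the kappa segments, Igkv8-16 was counted most, with 32 counts in replicate 1 and 34 in replicate 2. Igkv1-135 had 17 and 25 counts, and Igkv14-126 had 23 and 11. The next were Igkv12-89 with 5 and 1 counts and Igkv6-20 with 4 and 2. Of the heavy segments, Ighv11-2 led with 21 counts in replicate 1 and 16 in replicate 2. Ighv1-11 followed with 14 and 21 counts, then Ighv1-66 with 10 and 7, Ighv1-52 with 5 and 2 and Ighv9-3 with 0 and 7. In the lambda locus Iglv1 had 0 and 2 counts and Iglv3 had 1 and 0. No segment of the 5 with a mean of 10 counts or more differed between the libraries by the rule given below.

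Copies of variable segments can share reads. Of the 50-base stretches of Igkv8-16, 34.7% occurred in no other immunoglobulin gene, against 63.5% for Igkv1-135 and 61.4% for Ighv11-2. For Ighv1-11 and Igkv14-126 it was 100%. Counts of Igkv8-16 and the other segments with near copies are therefore uncertain, although the posterior SD in the files was 0 for every variable segment.

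**Figure D3:**
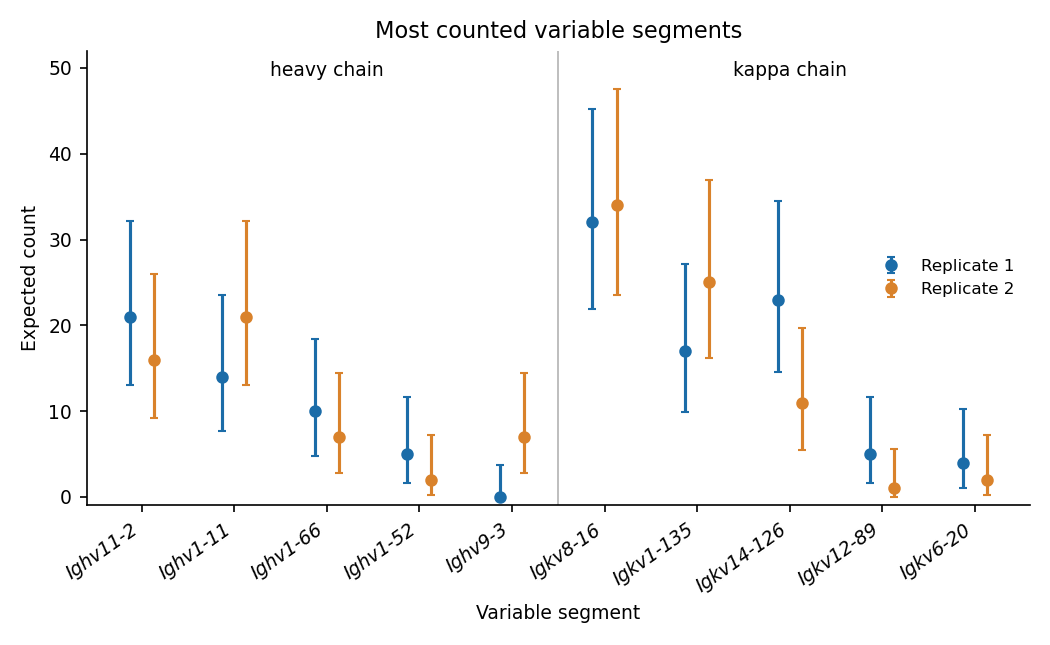
Expected counts of the 5 most counted heavy and the 5 most counted kappa variable segments in each technical library, with 95% exact Poisson intervals. Igkv8-16 holds 32 and 34 counts, and the intervals of the libraries overlap for every segment drawn.

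Ighv11-2 and Igkv14-126 are known as a pair from the antibodies of B-1a cells that bind phosphatidylcholine. Both were among the 5 most counted segments, and the files do not pair heavy with light chains. The last 120 bases of each variable exon are shown because they lead into the third antigen-contacting loop. Capitals mark the last in-frame cysteine codon, after which that loop begins. Ighv11-2 was read at chr12:114048241-114048360 on the minus strand and Igkv14-126 at chr6:67896523-67896642 on the plus strand of GRCm38, both as the germline reference.
Ighv11-2 end: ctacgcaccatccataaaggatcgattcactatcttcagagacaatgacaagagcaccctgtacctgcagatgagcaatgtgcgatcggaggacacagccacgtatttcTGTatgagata
Igkv14-126 end: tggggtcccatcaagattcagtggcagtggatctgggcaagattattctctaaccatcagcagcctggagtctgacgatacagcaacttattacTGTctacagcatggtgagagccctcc

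The libraries were then set against each other. Ratios are log2 of replicate 2 over replicate 1, on totals scaled by TMM, a method that assumes that most genes do not differ. Each gene with a mean of at least 10 counts was tested by a two-sided exact binomial test with Benjamini-Hochberg adjustment. Calls needed a log2 ratio of at least 1 in either direction with an adjusted p under 0.05. The test compares these 2 libraries, and no replicate stands behind either side. Of 12452 genes tested over the whole table, 12.3% were called, 8.31% higher and 4.00% lower in replicate 2. Of the 9 antibody and B cell genes, 6 had enough counts to be tested and 1 was called, a number too small to set apart from that background.

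The called gene was Cd79a, lower in replicate 2 by a log2 ratio of -1.38 (95% exact interval -2.68 to -0.35, adjusted p = 0.0179). With an assumed dispersion of 0.1 in edgeR's exact test its adjusted p was 1. Ighm had a log2 ratio of -0.57 (-0.76 to -0.39) with an adjusted p of 7.69e-09 by the exact binomial test, and Igkc one of -0.48 (-0.81 to -0.16) with 0.011. Both differ by more than counting error and less than the size the rule asks for. With the trend of ratios with effective length removed, they were -0.71 for Ighm and -0.93 for Igkc, nearer to that size. With the assumed dispersion of 0.1, neither had an adjusted p under 0.05 in edgeR's exact test. Ms4a1 had a log2 ratio of -1.03 (-2.72 to 0.29) and an adjusted p of 0.199 by the exact binomial test. Jchain had 0.70 (0.08 to 1.32) with an exact adjusted p of 0.0555. Pigr had 0.31 (-0.18 to 0.79) with an exact adjusted p of 0.345, and its ratio was -0.23 with plain library totals. Igha, Cd79b and Mzb1 had too few counts to be tested.

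The median log2 ratio of the 6 tested genes was -0.53, against -0.011 over all tested genes. Scaling by plain library totals moves every log2 ratio by -0.54 and calls 23.7% of all genes, 2.75% higher and 20.9% lower in replicate 2. Beside that background 4 of the 6 were called, all lower: Cd79a, Ighm, Igkc and Ms4a1. Counts of all constant and variable immunoglobulin genes together were 152 CPM (counts scaled to a fixed library total) in replicate 1 and 78.0 CPM in replicate 2. Without the mitochondrial genes and the other dominant features these were 246 and 163 CPM. The share of those features differed between the libraries beside these ratios, and its part in them was not tested.

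**Figure D4:**
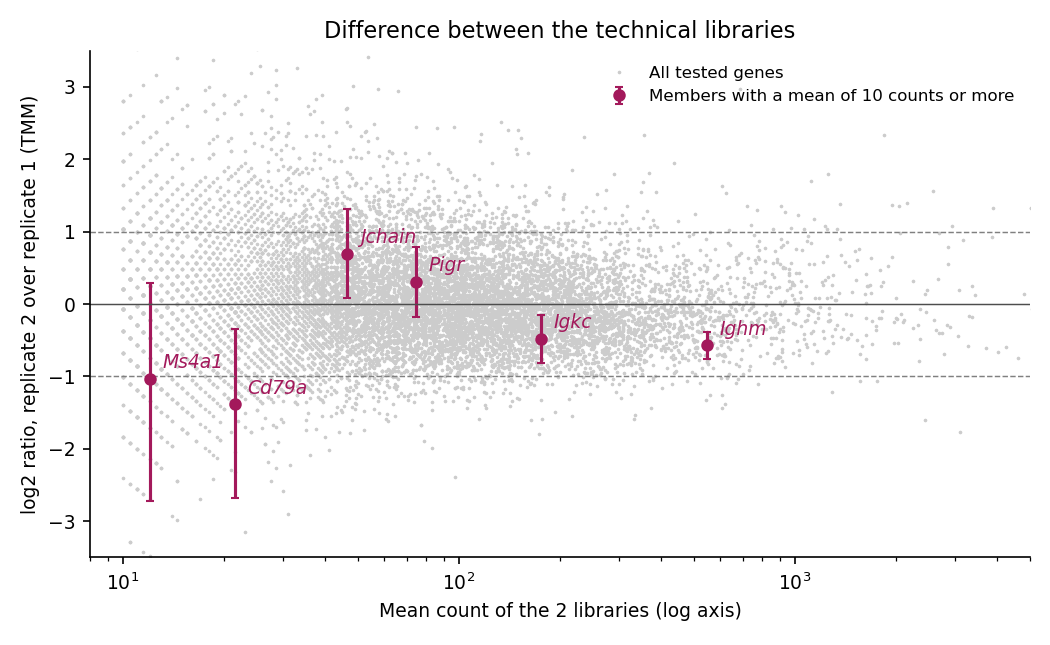
Log2 ratio of replicate 2 over replicate 1 after TMM scaling against the mean count on a log axis, for all tested genes in grey and the 6 tested antibody and B cell genes in colour with 95% exact intervals; dashed lines mark a log2 ratio of 1 in either direction, and the axes leave out 112 genes. Cd79a and Ms4a1 lie lowest at low counts, and with plain library totals Pigr falls below 0 and every point moves down by 0.54.

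Variable and constant immunoglobulin counts went apart. Constant genes held 1282 counts in replicate 1 and 604 in replicate 2, while variable segments held 155 and 160. For each 100 constant counts there were 12.1 variable counts in replicate 1 and 26.5 in replicate 2, a comparison that no scaling enters. The log2 ratio was -0.60 (-0.75 to -0.46) for constant genes and 0.53 (0.20 to 0.86) for variable segments, where plain totals gave -1.14 and -0.01. The same held in both main loci, with 5.77 and 13.5 variable counts for each 100 constant counts in the heavy locus and 40.5 and 78.2 in the kappa locus. This contrast was chosen after the data were seen, and its intervals hold counting error only.

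Genes of the B cell lineage outside the 9 were low as well. Of 17 B cell identity genes, 2 reached 1 TPM in both libraries, and the list's median was 0.14 TPM in replicate 1 and 0.33 in replicate 2. Ebf1 was the highest by mean, with 7.40 and 3.23 TPM, and the one called, lower in replicate 2 with a log2 ratio of -1.07 and an exact adjusted p of 3.56e-12. Ebf1 drives early B cell development and is also made by fat and stromal cells. Cd72, a B cell coreceptor, had 3.47 and 0.94 TPM, and Ighd 3.23 and 0.56. By counts these were 14 and 9 for Cd72 and 24 and 7 for Ighd. Effective lengths were 461.25 and 1265.94 bases for Cd72 and 851.0 and 1652.94 for Ighd. Their log2 ratios, taken from counts, were -0.13 and -1.23, and neither was called. Pax5, the factor that keeps B cell identity and a gene named after its values were seen, had 0 counts in replicate 1 and 3 counts, or 0.33 TPM, in replicate 2.

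B cell receptor signalling genes, most of them shared with other blood cells, were at 1 TPM or more in both libraries for 10 of 17. Cd81, a coreceptor subunit made by many cell types, had 77.35 and 52.57 TPM. Ptpn6 had 8.79 and 3.77 TPM and Rasgrp3 8.06 and 4.12. The effective length of Ptpn6 was 1106.7 and 2079.45 bases, and its log2 ratio by counts was -0.04. Pik3cd was the one called, higher in replicate 2 at 0.29 and 0.75 TPM with a log2 ratio of 1.62 and an exact adjusted p of 0.00402.

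Of 13 plasma cell genes, 7 reached 1 TPM in both libraries, and the highest were genes of the secretory pathway, which acinar cells use too. Ssr4 had 112.05 and 111.42 TPM, Xbp1 109.5 and 99.1, and Fkbp11 72.5 and 86.59. Sdc1, a surface protein of plasma cells and epithelia that was named after its values were seen, had 3.35 and 2.52 TPM. Tnfrsf17, the plasma cell receptor BCMA, had 0 counts in both libraries. Cd38 was the one called, lower in replicate 2 at 4.74 and 1.67 TPM with a log2 ratio of -1.22 and an exact adjusted p of 2.22e-05.

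Of 5 germinal centre genes, 2 reached 1 TPM in both libraries. S1pr2 was called higher in replicate 2, at 0.86 and 1.75 TPM with a log2 ratio of 1.27 and an exact adjusted p of 0.00605. Fas had 5.43 and 2.79 TPM and Bcl6 1.84 and 1.38, and both genes are used by many cell types.

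Genes for the homing and survival of IgA cells were mostly low, with 2 of 13 at 1 TPM in both libraries. Tgfb1, which drives switching to IgA, had 6.72 and 4.54 TPM, and the chemokine Ccl25 had 3.86 and 3.69. Tnfsf13, the plasma cell survival factor APRIL, was called lower in replicate 2, at 3.69 and 0.29 TPM with a log2 ratio of -3.15 and an exact adjusted p of 2.18e-06. Ccr10, Il6 and Il10 had 0 counts in both.

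Genes that induce Pigr or carry its cargo were better represented, with 17 of 20 at 1 TPM in both libraries. Rab11a, a GTPase of recycling endosomes, had 35.04 and 29.55 TPM, Usf2 22.47 and 18.07, and Usf1 10.50 and 19.06. Of 19 list genes tested, 4 were called higher in replicate 2 and 0 lower, against 8.31% and 4.00% of all genes. They were Il17rc with a log2 ratio of 2.38, Relb with 1.68, Usf1 with 1.20 and Ap1m2 with 1.11. With plain totals Usf1 (0.66) and Ap1m2 (0.57) were no longer called, and Ifngr1 and Myo5b, which this scaling alone picked out, were called lower, so 2 were higher and 2 lower. Pigr itself was not called. Usf1 and Usf2 bind the E-box CACGTG. Searched on both strands in the 250 bases before the start in RefSeq's GRCm38.p6 promoters, that motif occurred once in Pigr, 71 bases before the start. It occurs in 6.02% of 32851 promoters. The promoters of Jchain and Cd79a, the other 2 of the 9 genes found in that table, held no match. The octamer ATGCAAAT, the palindromic EBF1 motif, the interferon response element and the unfolded protein response element TGACGTGG occurred in none of the 3 promoters. They occurred in 1.6%, 0.779%, 2.98% and 0.563% of all promoters. Only exact matches were searched, so EBF1 sites that depart from the palindrome were not looked for. The search thus does not show that the Cd79a promoter lacks an EBF1 site. The Cd79a window, chr7:24897247-24897496, also reaches past the start at chr7:24897381 given above.

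Of 6 Fc receptor genes, 4 reached 1 TPM in both libraries. Fcer1g had 13.21 and 7.39 TPM, and Fcgr2b, the inhibitory IgG receptor of B cells and macrophages, 9.13 and 3.99. Fcgrt, the neonatal receptor that carries IgG across cells, was called higher in replicate 2, at 4.72 and 12.06 TPM with a log2 ratio of 1.62 and an exact adjusted p of 8.58e-14. Fcamr, a receptor for IgM and IgA, had 0 counts in both.

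Markers of other immune cells were read beside these. Of 14 T cell genes, 0 reached 1 TPM in both libraries, their TPM summed to 4.52 and 4.73, and Cd3g and Cd8a had 0 counts in both. Trbc1 was the highest by mean, at 0.40 and 2.25 TPM, ahead of Cd2 with 1.16 and 0.53 and Lck with 1.01 and 0.32. All 11 myeloid genes reached 1 TPM, led by Lyz2 with 86.42 and 82.66 TPM, C1qb with 25.11 and 20.16 and C1qa with 16.83 and 23.65. Of 9 genes for the display of antigen on MHC class II, 4 reached 1 TPM in both libraries, among them Cd74 with 65.77 and 57.20 TPM. H2-Ab1 had 37.13 and 20.75 TPM and H2-Aa 26.18 and 29.39. The counts of H2-Ab1 were 173 and 163, with effective lengths of 533.43 and 1042.7 bases. Its log2 ratio was thus 0.40, in the other direction from its TPM, and it was not called. H2-DMa was called lower in replicate 2 with a log2 ratio of -1.23 and an exact adjusted p of 0.0391. By median, T cell genes had 0.185 and 0.225 TPM and B cell identity genes 0.14 and 0.33, while by sum the B cell identity genes were higher, at 18.72 and 11.23 TPM. The myeloid medians, 7.09 and 5.75 TPM, were above both.

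Genes of lymph node stroma and lymphocyte homing were also present, with 3 of 10 at 1 TPM in both libraries. Ccl21a, a chemokine of lymphoid vessels and stroma, had 37.17 and 33.77 TPM, and Chst4, an enzyme of high endothelial venules, 2.62 and 2.44. Cxcl13, the chemokine that draws B cells into follicles, was called lower in replicate 2, at 14.74 and 4.69 TPM with a log2 ratio of -1.36 and an exact adjusted p of 1.08e-06. Glycam1, a lymph node product, had 0 counts in both. The list summed to 57.09 TPM in replicate 1 and 45.24 in replicate 2, and most of that difference was Cxcl13. Ccl21a and Chst4 had log2 ratios of 0.15 and 0.18, which were -0.39 and -0.35 with plain totals. The part of lymphoid tissue in the differences of Igkc, Ighm and Cd79a was not tested.

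All 12 duct and epithelial genes reached 1 TPM in both libraries. Bulk RNA does not show which epithelial cells, duct or acinar, made them. Their levels are thus no measure of the cells that use Pigr. Spp1 had 99.12 and 81.26 TPM, Krt18 38.12 and 36.09 and Muc1 25.93 and 33.27. The effective length of Muc1 was 2079.45 and 1045.42 bases. Its log2 ratio by counts was -0.36, in the other direction from its TPM. Krt8 and Cldn3 were called higher in replicate 2, with log2 ratios of 1.32 and 1.31. Pigr, at 2.45 and 2.51 TPM, lay below the median of that list, which was 14.8 TPM in replicate 1 and 11.3 in replicate 2.

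**Figure D5:**
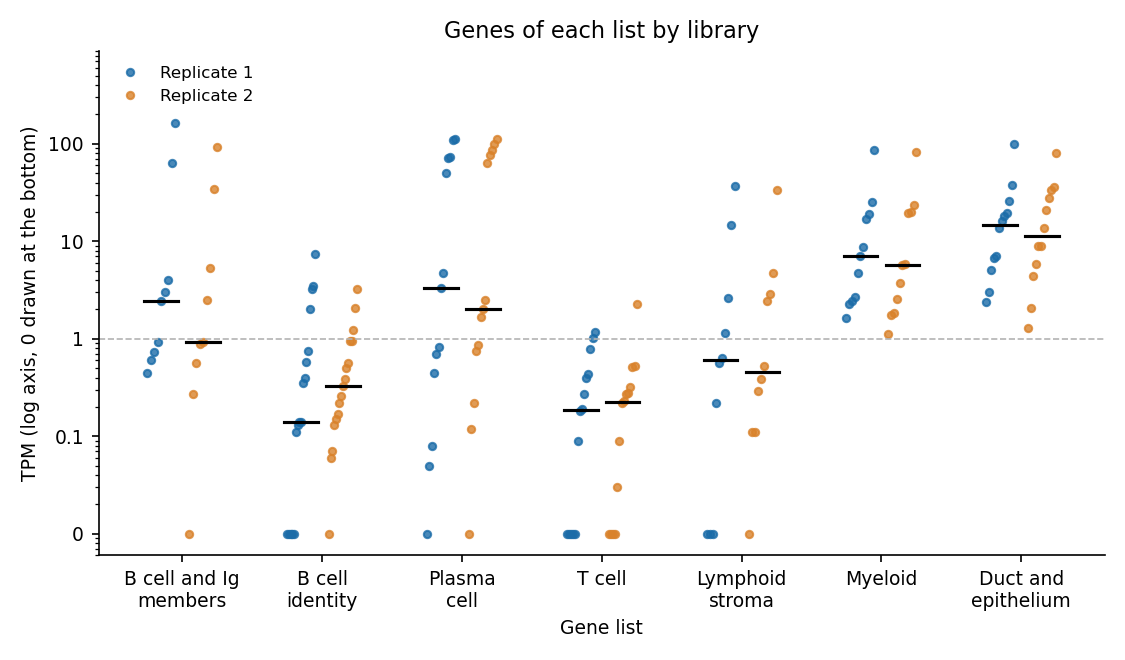
TPM of each gene of 7 lists in each technical library on a log axis, with 0 drawn at the bottom, black bars at the list medians and a dashed line at 1 TPM. B cell identity and T cell genes have medians below 1 TPM, while myeloid and duct genes have medians above 5 TPM.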

How the data were processed

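The members and lists were chosen with earlier results of these data known. The authors deposited, per the file headers, an expected count and a TPM for each gene and transcript, with a posterior mean count, its standard deviation and a posterior mean TPM, treated as a signal value and used as an alternative. The deposited README gives build mm10 and GENCODE M4. Aligner, quantifier and strand setting: not given in the sources used here. TPM recomputed from count and effective length came within 1% of the deposited TPM in 100% of genes that reached 1 TPM in replicate 1.

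Symbols, positions and exons came from GENCODE M21 on GRCm38, and 42462 of 43346 gene identifiers matched. Of 179 list symbols in 16 lists, 176 matched. Expected counts were rounded to whole numbers. TMM factors came from edgeR 4.0.16 in R 4.3.3, and tests and intervals from scipy 1.17.1. With 1 library on each side there are no residual degrees of freedom for edgeR's quasi-likelihood test, so the count of replicate 2 was tested against the sum of both libraries by the exact binomial test, two-sided, with 0.5 added to both counts for the log2 ratio. The test was checked on simulated data that held counting error only, so the check does not cover further spread between libraries. The limit for 0 counts was 3 counts in each library, or 0.318 and 0.306 CPM. Named genes are the 9 members, the 3 highest of each list by mean TPM, every list gene called or at 0 in both libraries, and the 5 most counted variable segments per locus. Some list genes that this rule names are not reported here. The acinar, islet and housekeeping lists served as a check of the tissue and are given only as counts, with 6 of 6 housekeeping genes at 1 TPM or more in both libraries. Alternatives were other scalings (library totals, DESeq2 1.42.0 size factors, upper quartile), other count filters, the posterior means, a pseudocount of 2, an assumed dispersion, and a length trend removed.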

Additional observations from a re-analysis of the deposited data

How the results depend on the processing

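Taking mitochondrial genes and the other dominant features out of the TPM total raised the mean to 231 TPM for Igkc, 87.5 for Ighm, 8.32 for Jchain, 4.42 for Pigr, 3.54 for Cd79a, 1.19 for Cd79b, 1.04 for Igha and 0.899 for Ms4a1. The posterior mean TPM gave 0.665 for Igha and 2.76 for Pigr. With library totals the test called 4 members and 2945 genes (342 higher, 2603 lower), and the log2 ratio of Pigr reversed to -0.23. With a mean of at least 50 counts it called 0 members and 649 genes (443 higher, 206 lower), since Cd79a was then not tested. edgeR's exact test with a dispersion of 0.1 called 0 members and 45 genes (31 higher, 14 lower). In shares of TPM, Ighm held 65.1% of heavy chains and Igkc 98.5% of light chains. Requiring 5 counts left 6 variable segments, and 5 TPM left 59 list entries against 100 at 1 TPM.

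Leaving out each library in turn gave 92.8 to 165 TPM for Igkc, 34.5 to 63.1 for Ighm, 4.00 to 5.35 for Jchain, 2.45 to 2.51 for Pigr, 0.92 to 3.01 for Cd79a, 0.45 to 0.89 for Cd79b, 0.56 to 0.61 for Igha, 0.27 to 0.73 for Ms4a1 and 0 to 0.93 for Mzb1. The share of Ighm ran from 71.0% to 73.8%, of Igha from 0.481% to 0.832%, of Igkc from 95.5% to 96.7%, and of secreted Ighm from 86.9% to 96.0%. Variable segments detected ran from 19 to 31. Over all results and alternatives, 111 values kept the direction and side of the threshold or stayed within the spread. Of the others, 27 moved further, 3 came to pass the threshold, 1 lost it and 1 reversed. With 2 libraries, leaving 1 out always moves a mean by less than the SD. Mean levels and mean shares without 1 library thus stay within the spread by construction and are no check of stability. No paired analysis was possible because both libraries form 1 group. Depth limits Igha, Cd79b and Mzb1, which averaged under 10 counts.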
